A study of Caenorhabditis elegans with 8 samples.

Results

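Embryos of the nematode Caenorhabditis elegans at the 2-cell stage were compared with embryos at the 1-cell stage by sequencing of polyadenylated RNA, with 2 libraries per stage numbered 1 and 2. Each 2-cell library was set against the 1-cell library of the same number. A gene entered the comparison with at least 1 RPKM (read number scaled by transcript length and library size) in at least 2 of these 4 libraries, which 8791 of the 21774 genes in the deposited table did. The genes described are mainly those that moved the same way in both numbers.

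The series also holds 2 oocyte and 2 sperm libraries, which served here only for levels before fertilization. The labels give the strain TX189(OMA-1::GFP) and 24 degrees C for all 8 libraries. OMA-1 is a maternal zinc finger protein that is destroyed after the first division, and the GFP fusion is carried by both stages compared. The protocol names wild-type N2 hermaphrodites for the oocytes and males of a fog-2(q71) background for the sperm, which differs from that label. It describes fluorescence-based sorting for the 1-cell embryos, and how the 2-cell embryos were collected is not given in the sources used here. Collection and stage therefore cannot be told apart. Nothing says that the libraries came from separate cultures. The p-values given set the mean stage difference of a gene against the spread between the differences of numbers 1 and 2. That spread was drawn mostly from other genes, so a gene whose numbers disagree can still have a small p-value. The p-values do not measure the spread between cultures or between libraries of the same stage.

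As background, the early worm embryo is run by RNAs that the mother laid down in the oocyte. These include the RNAs for the eggshell, for the cell cycle and for the RNA-binding proteins that set up cell fate. Transcription of the embryo's own genome begins within the first few divisions. Among the best known are med-1 and med-2, which the maternal factor SKN-1 activates in the blastomere that gives rise to gut and mesoderm.

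Summed RPKM were 866028 and 923528 for the 1-cell libraries, and 832603 and 862903 for the 2-cell libraries. Between 26.4% and 29.4% of genes were at 0 in these 4 libraries, against 2.48% and 2.93% in the oocyte libraries, so levels set against oocytes may differ in how they were made. Read counts were not used here. Steps between the low values put the depth, roughly, at 2.07e+07 and 3.51e+07 reads in 1-cell embryos and 1.76e+07 and 2.99e+07 reads in 2-cell embryos. At these depths 1 RPKM of a 1 kb transcript corresponds to between 17.6 and 35.1 reads. Number 2 was the deeper library at both stages.

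Most abundant RNAs differed little between the stages. Of 5632 genes that averaged at least 10 RPKM over these libraries, 4299 (76.3%) differed by less than 0.5 on the log2(RPKM + 1) scale in both numbers. The median difference of all 8791 genes, 2-cell minus 1-cell, was 0.06 log2, with 0.08 in number 1 and 0.02 in number 2. Same-numbered libraries of different stages were closer to each other than libraries of the same stage. Their Pearson correlation across genes was 0.992 in number 1 and 0.989 in number 2, against 0.936 between the 1-cell libraries and 0.947 between the 2-cell libraries. The labels do not say what the numbers share.

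Differences were tested with limma on log2(RPKM + 1) with the number as a block. A gene was called at a Benjamini-Hochberg adjusted p under 0.05 and a difference of at least 1 log2. In 2-cell embryos 31 genes were called higher (0.353% of the genes tested) and 17 were called lower (0.193%). By the pairs alone, with no test, 17 genes (0.193%) were higher by at least 1 log2 in both numbers and 8 (0.091%) were lower, and each of these is among the genes called. Most of these 17 genes passed the filter only through the 2-cell libraries, which alone made them higher in both numbers. This count describes the same differences as the calls and gives them no separate support. The libraries are of whole embryos, so fewer embryos of a stage and less RNA per embryo cannot be told apart. They hold polyadenylated RNA scaled to library size, so made or lost RNA and a change in polyadenylation cannot be told apart either. A rise or fall in the text is a difference of such levels.

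The calls rest on the pairing. With no replicate block the same test called 0 genes higher and 0 lower, and 42 genes had an unadjusted p under 0.05, against 1165 with the block. Without any 1 of the 4 libraries the other 3, fitted with no block, gave 0 to 3 genes called higher and 0 to 1 called lower. The count of 3 came without 2-cell library 1, and the count of 1 came without 1-cell library 1 or without 2-cell library 1.

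**Figure D1:**
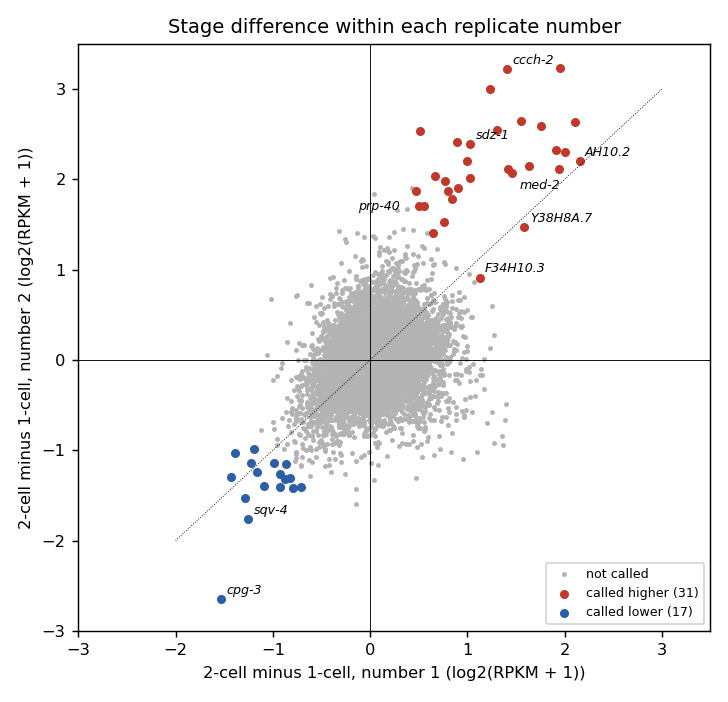
Difference 2-cell minus 1-cell in log2(RPKM + 1) for each of the 8791 genes, in number 1 (horizontal axis) and number 2 (vertical axis). Red points are the 31 genes called higher and blue points the 17 called lower; the dotted line marks equal differences, and 29 of the 31 red points lie above it.

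The genes called higher were mostly rare in the 1-cell embryo. The median over the 31 of the mean level was 0.652 RPKM in 1-cell and 4.55 RPKM in 2-cell embryos, and 6 of the 31 reached a mean of 10 RPKM in 2-cell embryos. Of these genes, 17 passed the filter on low values only through the 2-cell libraries. Their stages could not overlap and they had to differ, so their p-values and folds are given as descriptions only. They include med-1, med-2, sdz-1, sdz-21, Y75B12A.2, F58E6.6, F58E6.8, AH10.2, F38C2.7, Y116A8C.20, F18E3.13, F18E3.11 and F47B3.2. For the remaining 14 the stages did not overlap either, against 8.37% of all genes that passed through both stages with both 2-cell libraries above both 1-cell libraries, and these 14 were chosen by the same difference. In both oocyte and both sperm libraries 23 of the 31 were under 1 RPKM, a share not counted over all genes. The 27 of them with an annotated transcript had a median length of 760 bases and a median of 2 exons, against 1385 bases and 6 exons over the 8245 tested genes with a length.

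The paralogs med-1 and med-2 encode GATA-type transcription factors of the mesendoderm. The level of med-1 was 0.278 and 0 RPKM in the 1-cell and 1.60 and 3.06 RPKM in the 2-cell libraries. Its rise was 1.52 ± 0.23 log2 (limma moderated SE, n = 2 pairs, limma adjusted p = 0.00314), with 1.02 log2 in number 1 and 2.02 log2 in number 2. Each SE after ± in the text is this moderated one, drawn mostly from the spread of other genes. It does not show how closely the 2 numbers of a gene agreed. The level of med-2 was 0.278 and 0 RPKM at the 1-cell stage and 2.52 and 3.22 RPKM at the 2-cell stage. Its rise was 1.77 ± 0.21 log2 (limma adjusted p = 2.41e-04). The genes are near-identical copies with single exons, so how the counting divided reads between them is uncertain. At the rough depths the med-1 values correspond to 3.02 and 0 reads in 1-cell and to 14.8 and 48 reads in 2-cell embryos.

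The sdz genes take their name from zygotic transcripts that depend on SKN-1. sdz-1 stood at 0.616 and 0.379 RPKM in 1-cell and at 2.30 and 6.23 RPKM in 2-cell embryos, a rise of 1.71 ± 0.26 log2 (limma adjusted p = 0.00314). sdz-21 stood at 0.903 and 0.400 RPKM and then at 1.97 and 2.72 RPKM, a rise of 1.03 ± 0.21 log2 (limma adjusted p = 0.0304). Both genes were under 1 RPKM in every gamete library. With a robust variance prior sdz-1 kept its size and had an adjusted p of 0.0627. With quantile normalization the difference of sdz-21 was 0.95 log2, just under the threshold (adjusted p = 7.35e-05). That adjusted p cannot be set beside the one above, because the spread was estimated anew. For cpg-3, called lower, the limma adjusted p was 3.09e-28 with quantile normalization and 1.08e-04 in the main fit, at similar differences.

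med-1, med-2 and sdz-1, but not sdz-21, belong to a list of early zygotic transcripts, which also marks older embryos that a 2-cell sample could hold. Of its 60 genes 58 were in the table and 38 were tested, 3 of them only through the 2-cell libraries. Those 3 are med-1, med-2 and sdz-1, the only members called higher, so their number is no result about the list, and 0 were called lower (0.353% and 0.193% of all genes). In both numbers 13 of the 38 (34.2%) were higher and 3 (7.89%) lower, against 36% and 24% of all genes tested, and their median difference was 0.11 log2. The levels of all members in the table summed to 759 and 547 RPKM in the 1-cell and to 765 and 652 RPKM in the 2-cell libraries.

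Other members of that list did not pass. pes-10, among the first genes seen to be transcribed in the embryo, stood at 1.53 and 0.593 RPKM and then at 2.28 and 4.09 RPKM, with both 2-cell libraries above both 1-cell libraries. Its difference was 1.02 log2 with a limma adjusted p of 0.0731. ref-1, a Notch target, stood at 16.7 and 11.9 RPKM and then at 19.1 and 26.3 RPKM (0.64 log2, limma adjusted p = 0.201). The T-box gene tbx-33 stood at 14.4 and 19.9 RPKM and then at 19.7 and 35.1 RPKM (0.61 log2, limma adjusted p = 0.161), and its stages overlapped. vet-1, named for very early transcription, stood at 9.72 and 9.04 RPKM and then at 11.99 and 12.17 RPKM (0.33 log2, limma adjusted p = 0.460).

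Genes that act later in the same lineage were near their 1-cell level or near 0. The endoderm factor gene end-1, a target of the MED proteins, stood at 1.18 and 0.878 RPKM in 1-cell and at 1.57 and 0.778 RPKM in 2-cell embryos. Its partner end-3 stood at 2.03 and 2.32 RPKM and then at 1.57 and 3.35 RPKM. For both genes the stages overlapped, with a difference of 0.08 log2 each and limma adjusted p of 0.896 and 0.907. The later gut factor gene elt-2 was under 1 RPKM in all 4 libraries, with a highest value of 0.895 RPKM in 2-cell library 1. The T-box gene tbx-35, a MED target of the mesoderm, was listed at 0 in both 1-cell libraries and in 2-cell library 1, and at 0.0386 RPKM in 2-cell library 2. A part of older embryos in the rise of med-1, med-2 and sdz-1 was not tested. The genes ref-1, tbx-33, vet-1, end-1, end-3, elt-2 and tbx-35 were picked after their values were seen.

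Further genes that were almost absent from the 1-cell libraries have no assigned role here. Y75B12A.2 had the largest difference of the 31, 2.60 ± 0.25 log2 (limma adjusted p = 4.44e-05), from 0.365 and 0.0389 RPKM to 4.30 and 8.78 RPKM. F58E6.6 went from 0.133 and 0 RPKM to 3.89 and 5.21 RPKM, a rise of 2.37 ± 0.20 log2 (limma adjusted p = 3.19e-05). AH10.2 went from 0.131 and 0.0578 RPKM to 4.04 and 3.86 RPKM, a rise of 2.18 ± 0.19 log2 (limma adjusted p = 3.19e-05). The rises of AH10.2 in both numbers were nearly equal, whereas that of Y75B12A.2 was 1.96 log2 in number 1 and 3.23 log2 in number 2. All 3 genes passed the filter only through the 2-cell libraries and were under 0.1 RPKM in both oocyte and both sperm libraries.

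Some genes called higher lie next to each other in the genome. In the gene order of the WBcel235 annotation 9 of the 27 that were matched (33.3%) had another called gene as a neighbour or across 1 gene, and each of these neighbours was also called higher. Of the 8245 matched genes tested 81 (0.982%) had a called gene that near, and no test was made of this. Most of the 9 genes, F38C2.7 among them, passed the filter only through the 2-cell libraries. Those genes could enter only by being higher, so the share over all tested genes is no like-for-like baseline for them. ccch-2, which encodes a CCCH zinc finger protein, is directly adjacent to F38C2.7 on the opposite strand. ccch-2 went from 0.977 and 1.15 RPKM to 4.23 and 19.02 RPKM, a rise of 2.31 ± 0.30 log2 (limma adjusted p = 6.33e-04). F38C2.7 went from 0.835 and 0.831 RPKM to 4.36 and 10.4 RPKM, a rise of 2.09 ± 0.23 log2 (limma adjusted p = 1.83e-04). With a robust variance prior ccch-2 had an adjusted p of 0.153.

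A second group of neighbours comprised dct-13, Y116A8C.19 and Y116A8C.20. Y116A8C.20 went from 0.562 and 0.380 RPKM to 4.27 and 7.31 RPKM, a rise of 2.17 ± 0.22 log2 (limma adjusted p = 5.89e-05). The adjacent Y116A8C.19 went from 1.43 and 1.23 RPKM to 3.84 and 9.25 RPKM, a rise of 1.60 ± 0.24 log2 (limma adjusted p = 0.00321). dct-13 went from 2.696 and 2.65 RPKM to 4.44 and 10.96 RPKM, a rise of 1.13 ± 0.24 log2 (limma adjusted p = 0.0304). The gene between dct-13 and Y116A8C.19, nhr-229, was listed at 0 in all 4 libraries, so it broke the run of higher genes. F58E6.6 and F58E6.8 likewise flank F58E6.5, which reached no more than 0.127 RPKM. Strand was not stated for the counting, so reads of overlapping neighbours cannot be told apart. Sharing of reads between neighbours of similar sequence, in this group or the one before, was not tested.

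A further set was abundant in sperm. F18E3.13 stood at 0.180 and 0.0528 RPKM in 1-cell embryos and at 3.74 and 4.21 RPKM in 2-cell embryos, with 6.98 and 60.4 RPKM in the sperm libraries. Its near neighbour F18E3.11 stood at 0.0891 and 0.0523 RPKM and then at 1.04 and 2.94 RPKM, with 6.72 and 48.5 RPKM in sperm. F47B3.2 stood at 0.280 and 0.0937 RPKM and then at 1.17 and 2.15 RPKM, with 163 and 266 RPKM in sperm. All 3 genes passed the filter only through the 2-cell libraries, and their oocyte level was under 0.1 RPKM in both libraries. The rises were 2.16 ± 0.19, 1.41 ± 0.23 and 1.14 ± 0.22 log2 (limma adjusted p = 3.19e-05, 0.00604 and 0.0170). Of 26 tested members of a sperm list 6 (23.1%) were higher and 4 (15.4%) lower in both numbers, against 36% and 24% of all genes. None was called, against 0.353% of all genes called higher. With the trend on transcript length removed 12 (46.2%) were higher and 4 lower, against 37.2% and 19.9% of all genes with a length. The members of that list in the table summed to 349 and 386 RPKM in 1-cell and to 418 and 345 RPKM in 2-cell embryos.

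Of the genes called higher, 6 were abundant, with a mean of at least 10 RPKM at the 2-cell stage. F59C12.4 reached the highest level, from 25.5 and 41.4 RPKM to 69.8 and 182 RPKM, a rise of 1.76 ± 0.20 log2 (limma adjusted p = 2.24e-04). Its level was 2.74-fold higher in number 1 and 4.40-fold higher in number 2, and its annotated transcript has 150 bases. Y38H8A.7 went from 7.12 and 12.64 RPKM to 23.4 and 36.8 RPKM, a rise of 1.53 ± 0.18 log2 (limma adjusted p = 3.20e-04). F34H10.3 went from 9.51 and 10.4 RPKM to 21.95 and 20.3 RPKM, a rise of 1.02 ± 0.18 log2 (limma adjusted p = 0.0125). Y38H8A.7 and F34H10.3 were the only genes of the 31 whose difference was larger in number 1 than in number 2. With median-of-ratios scaling and with quantile normalization the difference of F34H10.3 was 0.99 and 0.91 log2, just under the threshold (adjusted p = 8.87e-05 and 4.34e-04). These adjusted p likewise cannot be set beside that of the main fit.

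The other abundant genes were ccch-2 and a pair of genes already plentiful in 1-cell library 1. prp-40, which encodes a splicing factor of the U1 snRNP, went from 67.4 and 25.6 RPKM to 96.1 and 85.5 RPKM, a rise of 1.104 ± 0.24 log2 (limma adjusted p = 0.0370). ccar-1, the worm counterpart of the human cell cycle and apoptosis regulator CCAR1, went from 49.2 and 16.9 RPKM to 68.6 and 64.6 RPKM, a rise of 1.17 ± 0.26 log2 (limma adjusted p = 0.0400). In both genes the 2-cell libraries were alike and most of the rise stood in number 2, at 1.70 log2 for prp-40 and 1.87 log2 for ccar-1. In number 1 it was 0.51 and 0.47 log2. Both calls ended with a robust variance prior (adjusted p = 0.121 and 0.182) and with scaling to a common RPKM sum (adjusted p = 0.0563 and 0.0606). Among 59 tested splicing factors prp-40 was called higher and 0 were called lower, against 0.353% and 0.193% of all genes.

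The remaining genes called higher include fbxb-17, of the F-box B group of candidate ubiquitin ligase adaptors. It went from 0.931 and 1.06 RPKM to 2.37 and 6.54 RPKM, a rise of 1.34 ± 0.23 log2 (limma adjusted p = 0.00878). It was the single member called of 93 tested Skp1-related and F-box genes, against 0.353% of all genes called higher and 0.193% called lower. Of the 93, 24 (25.8%) were higher and 35 (37.6%) lower in both numbers, against 36% and 24% of all genes. With the length trend removed 32 (34.4%) were higher and 22 (23.7%) lower, so the direction of this list depended on the treatment of length. A further 4 of the 31 genes carry RIT names, which the annotation does not hold. A locus of these was listed at 0 in both 1-cell libraries and stood at 2.84 and 3.34 RPKM in the 2-cell libraries. Another went from 1.53 and 0.545 RPKM to 8.54 and 6.73 RPKM, a rise of 2.12 ± 0.19 log2 (limma adjusted p = 3.19e-05). Over all genes tested, 420 carry RIT names.

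**Figure D2:**
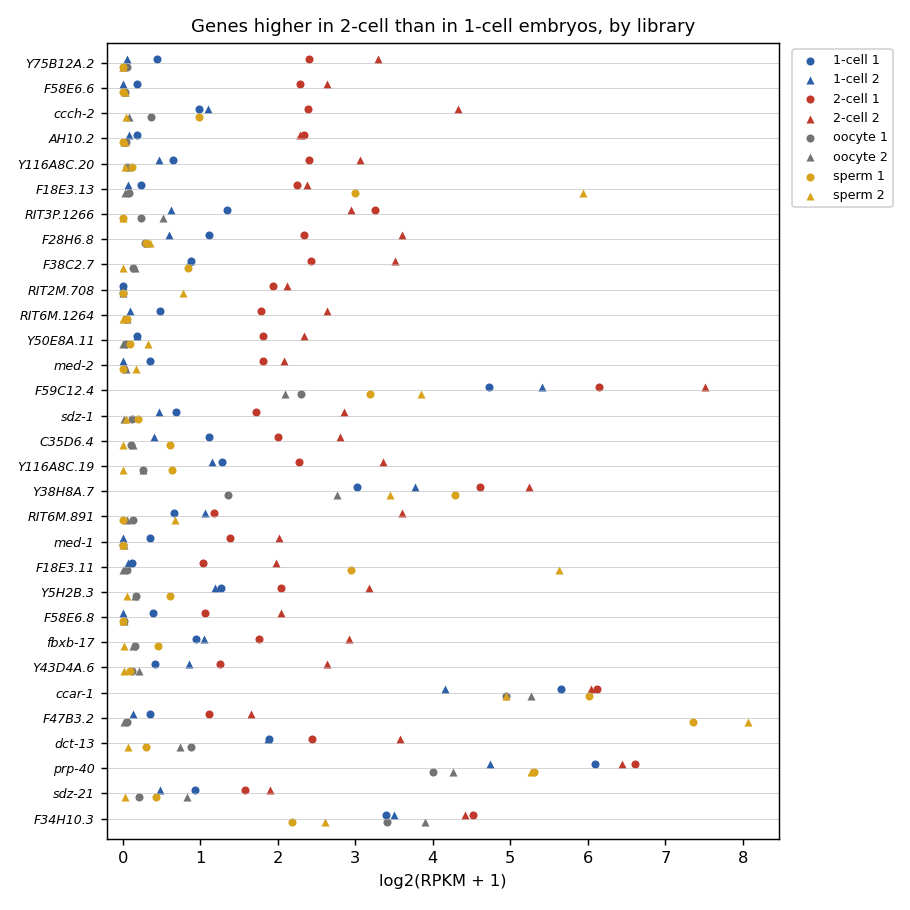
Level of the 31 genes called higher in 2-cell embryos, as log2(RPKM + 1) on the horizontal axis, in each library: 1-cell blue, 2-cell red, oocyte grey and sperm yellow, with circles for library 1 and triangles for library 2. In each row both red points lie to the right of both blue points, which the filter alone fixed for 17 of the rows, and F18E3.13, F18E3.11 and F47B3.2 have sperm points farther to the right.

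The rises were larger in number 2. Among the 31 genes 29 differed more in number 2, with a median difference of 1.13 log2 in number 1 and 2.12 log2 in number 2. Over all genes tested the SD of the difference was 0.325 log2 in number 1 and 0.381 log2 in number 2. The list of older-embryo markers summed higher in 2-cell than in 1-cell embryos in number 2 and was nearly level in number 1, as given above. It already summed to 759 and 547 RPKM in 1-cell embryos, so the sum rests mostly on RNAs present at that stage and is a poor measure of older embryos. A part of depth or of embryo age in the gap between the numbers was not tested.

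The genes called lower were mostly abundant at the 1-cell stage, with a mean of at least 10 RPKM in 15 of the 17, and they include RNAs for eggshell proteins. Their median mean level was 90.6 RPKM in 1-cell and 43.5 RPKM in 2-cell embryos. The stages did not overlap for 14 of the 17, which were chosen by the same difference, against 6.9% of all genes tested with both 2-cell libraries below both 1-cell libraries. In 10 of the 17 the oocyte mean was above the 1-cell mean, and in 8 both oocyte libraries were above both 1-cell libraries. In 5 both oocyte libraries were below both 1-cell libraries. Such shares against oocytes were not counted over all genes, so they describe the 17 only. These genes had a median length of 901 bases and a median of 4 exons, over the 15 with an annotated transcript.

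cpg-3, which encodes a chondroitin proteoglycan of the egg, fell most. It stood at 567 and 542 RPKM in 1-cell and at 196 and 85.5 RPKM in 2-cell embryos, so that it was 2.90-fold lower in number 1 and 6.33-fold lower in number 2. The fall was -2.09 ± 0.22 log2 (limma moderated SE, n = 2 pairs, limma adjusted p = 1.08e-04). cpg-2, a chondroitin proteoglycan of the inner eggshell layers, stood at 690 and 620 RPKM and then at 399 and 231 RPKM, a fall of -1.105 ± 0.18 log2 (limma adjusted p = 0.00542). Both RNAs were more abundant still in oocytes, with 2678 and 2478 RPKM for cpg-3 and 7861 and 6870 RPKM for cpg-2. Their order was thus oocyte, 1-cell and 2-cell embryo, with no overlap between neighbouring stages.

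Further genes called lower encode enzymes. sqv-4, the UDP-glucose dehydrogenase that supplies glucuronic acid for chondroitin, stood at 23.1 and 19.2 RPKM and then at 9.10 and 4.96 RPKM, a fall of -1.51 ± 0.19 log2 (limma adjusted p = 6.33e-04). sqv-2, a galactosyltransferase of the chondroitin linker, stood at 35.2 and 45.2 RPKM and then at 21.2 and 16.46 RPKM, a fall of -1.06 ± 0.20 log2 (limma adjusted p = 0.0198). gfat-2, an aminotransferase at the head of the pathway to the chitin precursor, stood at 9.85 and 4.97 RPKM and then at 3.75 and 2.01 RPKM, a fall of -1.09 ± 0.19 log2 (limma adjusted p = 0.00751). In oocytes gfat-2 stood at 636 and 1084 RPKM, so that the 1-cell libraries already held little of it. The difference of sqv-2 was just under the threshold with the length trend removed and with a common RPKM sum, at -0.99 and -0.98 log2 (adjusted p = 0.00538 and 0.0496).

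cyp-31A2, a cytochrome P450 needed for the lipid layer of the eggshell, stood at 33.8 and 23.6 RPKM in 1-cell and at 17.4 and 8.30 RPKM in 2-cell embryos. Its fall was -1.16 ± 0.19 log2 (limma adjusted p = 0.00640), from 132 and 193 RPKM in the oocyte libraries. Paralogs of the same P450 group exist, so how reads were divided among them is uncertain.

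The listed eggshell, fertilization and egg activation genes stood mostly lower in 2-cell embryos. Of 24 listed 22 were tested, and 17 of these (77.3%) were lower and 3 (13.6%) higher in both numbers, against 24% and 36% of all genes tested. The median difference was -0.40 log2, against 0.06 over all genes. The members called lower were cpg-3, cpg-2 and gfat-2, and 0 were called higher, against 0.193% and 0.353% of all genes tested. As lower at any size 5 passed the adjusted p, against 0.592% of all genes. The smaller falls that passed were those of egg-1, an egg surface protein needed for fertilization, and rme-2, the yolk receptor. With the trend on transcript length removed, 17 were lower and 3 higher, and the median was -0.48 log2.

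egg-1 stood at 100.005 and 29.8 RPKM and then at 58.4 and 13.97 RPKM, a fall of -0.90 log2 (limma adjusted p = 0.0284), and its stages overlapped because the numbers differed by more than the stages. rme-2 stood at 59.4 and 62.1 RPKM and then at 38.003 and 28.2 RPKM, a fall of -0.87 log2 (limma adjusted p = 0.0421), with no overlap. Of the members that did not pass, the chitin synthase gene chs-1 stood at 29.4 and 25.19 RPKM and then at 18.8 and 14.8 RPKM (-0.67 log2, limma adjusted p = 0.104). egg-2, a paralog of egg-1, had a difference of -0.72 log2 (limma adjusted p = 0.0915). cbd-1, a chitin-binding protein of the eggshell, had a difference of -0.48 log2 (limma adjusted p = 0.238). For chs-1 and cbd-1 both 2-cell libraries lay below both 1-cell libraries. egg-1, egg-2, rme-2 and cbd-1 were chosen after their values were seen.

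Other genes called lower have varied roles. daf-31, the catalytic subunit of an N-terminal acetyltransferase, stood at 262 and 139 RPKM and then at 107 and 47.5 RPKM, a fall of -1.41 ± 0.18 log2 (limma adjusted p = 6.03e-04). strl-1 stood at 66.5 and 17.03 RPKM and then at 24.0 and 6.35 RPKM, a fall of -1.36 ± 0.18 log2 (limma adjusted p = 9.70e-04). metl-6, which encodes a methyltransferase-like protein, stood at 37.4 and 26.9 RPKM and then at 15.5 and 11.7 RPKM, a fall of -1.18 ± 0.18 log2 (limma adjusted p = 0.00366). M04B2.4 stood at 15.3 and 5.103 RPKM and then at 6.27 and 1.58 RPKM, a fall of -1.202 ± 0.18 log2 (limma adjusted p = 0.00326). In strl-1 and M04B2.4 the stages overlapped, since number 1 was the higher library at both stages, while the folds within the numbers were close. strl-1 was 2.77-fold lower in number 1 and 2.68-fold lower in number 2.

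A few of the RNAs called lower had been above their oocyte level at the 1-cell stage. lbp-9, of the intracellular lipid-binding protein family, was the most abundant gene called, with 2011 and 2801 RPKM in 1-cell and 941 and 1065 RPKM in 2-cell embryos. Its fall was -1.24 ± 0.14 log2 (limma adjusted p = 2.24e-04), and it stood at 1389 and 1255 RPKM in oocytes. mrpl-35, a protein of the large mitochondrial ribosomal subunit, stood at 115.7 and 101 RPKM and then at 60.6 and 41.8 RPKM, a fall of -1.09 ± 0.18 log2 (limma adjusted p = 0.00751). It stood at 18.1 and 18.7 RPKM in oocytes. F08B6.1 stood at 82.4 and 211 RPKM and then at 44.5 and 84.1 RPKM, a fall of -1.097 ± 0.19 log2 (limma adjusted p = 0.00751), with 47.98 and 37.997 RPKM in oocytes. The remaining genes with both 1-cell libraries above both oocyte libraries were sup-36 and a locus with a RIT name. With the length trend removed the differences of mrpl-35, F08B6.1 and sup-36 were -0.91, -0.90 and -0.90 log2, under the threshold of size, with limma adjusted p of 0.00634, 0.00645 and 0.00719.

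C50E3.11 and a second RIT-named locus ran close to each other. C50E3.11 stood at 101 and 82.0 RPKM in 1-cell and at 50.3 and 36.6 RPKM in 2-cell embryos, a fall of -1.06 ± 0.18 log2 (limma adjusted p = 0.00751). The locus stood at 95.6 and 85.7 RPKM and then at 51.9 and 37.95 RPKM, a fall of -1.01 ± 0.18 log2 (limma adjusted p = 0.0131). Both calls ended with a common RPKM sum, where C50E3.11 stood at -0.99 log2 (adjusted p = 0.025). With the length trend removed C50E3.11 stood at -0.92 log2 (adjusted p = 0.00541). No transcript length was matched for the locus.

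**Figure D3:**
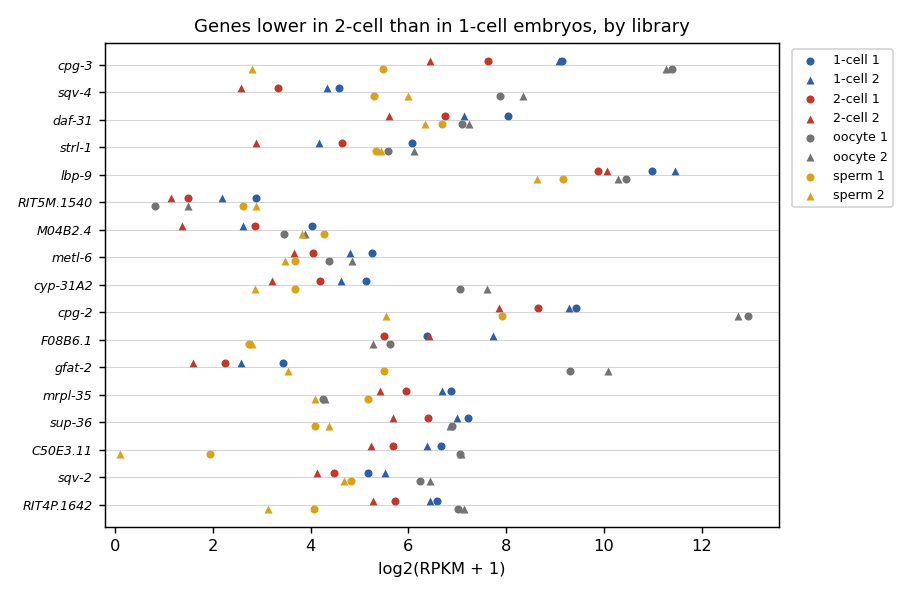
Level of the 17 genes called lower in 2-cell embryos, as log2(RPKM + 1) on the horizontal axis, in each library, with colours for the stage or gamete and circles and triangles for libraries 1 and 2. In 14 rows both red 2-cell points lie to the left of both blue 1-cell points, and for cpg-3, sqv-4, cyp-31A2, cpg-2 and gfat-2 the grey oocyte points lie farther to the right.

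Below the size of 1 log2, 15 more genes passed the adjusted p as higher and 35 as lower, which makes 46 higher (0.523%) and 52 lower (0.592%) at any size. Of these smaller changes a few named genes were chosen after their values were seen. hat-1, a histone acetyltransferase that acts on newly made histones, stood at 95.6 and 320 RPKM and then at 180 and 508 RPKM, a rise of 0.79 log2 (limma adjusted p = 0.0385). usp-4, a ubiquitin-specific protease gene, stood at 15.04 and 38.8 RPKM and then at 32.6 and 71.4 RPKM, a rise of 0.96 log2 (limma adjusted p = 0.0189). In both genes library 2 was far above library 1 at either stage, so that the stages overlapped.

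Among the smaller falls were very abundant RNAs. The cyclophilin gene cyn-7 stood at 7156 and 7995 RPKM and then at 4396 and 4177 RPKM, a fall of -0.82 log2 (limma adjusted p = 0.00231). ndk-1, a nucleoside diphosphate kinase gene, fell by 0.70 log2 (limma adjusted p = 0.0407), from 3787 and 2320 RPKM to 2901 and 1144 RPKM. snr-6, for a core protein of the spliceosomal snRNPs, fell by 0.60 log2 (limma adjusted p = 0.0497), from 2153 and 1662 RPKM to 1429 and 1086 RPKM. nduf-5, for a subunit of respiratory complex I, fell by 0.69 log2 (limma adjusted p = 0.0463), from 794 and 714 RPKM to 493 and 443 RPKM. The stages did not overlap for cyn-7, snr-6 and nduf-5 and overlapped for ndk-1.

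sip-1, a small heat shock protein gene of the germline and embryo, was the most abundant RNA of both number 1 libraries. It stood at 21728 and 5354 RPKM in 1-cell and at 16245 and 2503 RPKM in 2-cell embryos. Its fall was -0.76 log2 (limma adjusted p = 0.0148), smaller than the gap between the numbers. lin-41, for an RNA-binding protein that acts in oocytes, fell by 0.84 log2 (limma adjusted p = 0.0385), from 12.1 and 10.8 RPKM to 6.62 and 5.33 RPKM. It was the single member to pass at any size among 43 tested maternal RNA-binding regulators. Over all genes 0.523% passed as higher and 0.592% as lower. Of these regulators 0 were called, against 0.353% of all genes called higher and 0.193% called lower.

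Mitochondrial ribosomal protein genes were mostly lower in 2-cell embryos. Of 64 tested 55 (85.9%) were lower and 3 (4.69%) higher in both numbers, against 24% and 36% of all genes, and the median difference was -0.35 log2. mrpl-35 was called lower, and mrpl-22, mrpl-39 and mrpl-12 also passed the adjusted p at a smaller size. Over all genes 0.193% were called lower and 0.592% passed as lower at any size. mrpl-22 stood at 31.3 and 22.7 RPKM and then at 19.97 and 8.74 RPKM (-0.95 log2, limma adjusted p = 0.0325). mrpl-12 stood at 89.8 and 115 RPKM and then at 54.7 and 53.9 RPKM (-0.89 log2, limma adjusted p = 0.0304). mrpl-39 stood at 126 and 121 RPKM and then at 77.2 and 60.9 RPKM (-0.84 log2, limma adjusted p = 0.0385). The stages did not overlap in any of these 3 genes, which were chosen after their values were seen. The summed level of the list went from 10010 and 9775 RPKM to 7731 and 7459 RPKM.

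The mitochondrial ribosomal transcripts are short, with a median length of 755 bases, and the difference between stages rose with transcript length over all genes. It changed by 0.06 log2 per doubling of length in number 1 and by 0.13 log2 in number 2. The median difference was -0.09 log2 in the 581 genes of up to 500 bases and 0.24 log2 in the 401 genes above 4000 bases. With this trend removed, 43 of the mitochondrial ribosomal genes (67.2%) were lower and 4 higher, against 19.9% and 37.2% of all genes with a length, and the median was -0.22 log2. None of the list was then called.

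Ribosomal proteins of the cytosol, with a median length of 538 bases, behaved otherwise. Of 74 tested 7 were higher and 10 lower in both numbers, with a median of -0.03 log2. With the length trend removed 38 were higher and 3 lower, with a median of 0.15 log2, so the direction of this list depended on the treatment of length. Of 32 proteasome subunit genes 14 were lower and 1 higher in both numbers, with a median of -0.13 log2. With the trend removed 7 were lower and 4 higher. In neither list was a gene called, against 0.353% of all genes called higher and 0.193% called lower.

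Genes of cell polarity and early cell fate were mostly slightly higher in 2-cell embryos. Of 45 listed 44 were tested, and 34 of these (77.3%) were higher and 1 (2.27%) lower in both numbers, against 36% and 24% of all genes. The median difference was 0.23 log2, and 0 were called, against 0.353% of all genes called higher and 0.193% called lower. With the length trend removed 24 (54.5%) were higher and 3 (6.82%) lower, against 37.2% and 19.9% of all genes with a length. The median was then 0.13 log2. The largest difference was that of goa-1, a G protein alpha subunit that acts in spindle positioning, which stood at 20.95 and 53.3 RPKM and then at 36.7 and 81.7 RPKM (0.69 log2, limma adjusted p = 0.0944). lag-1, the transcription factor of Notch signalling, stood at 39.8 and 22.3 RPKM and then at 46.7 and 46.1 RPKM (0.62 log2, limma adjusted p = 0.198). Both genes were picked after their values were seen.

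Chromatin regulators were likewise mostly higher. Of 53 tested 33 (62.3%) were higher and 5 (9.43%) lower in both numbers, against 36% and 24% of all genes. Their median was 0.21 log2. With the length trend removed 27 (50.9%) were higher and 3 (5.66%) lower, against 37.2% and 19.9% of all genes with a length. Of 81 genes of the cell cycle, centrosome and spindle 37 (45.7%) were higher and 5 (6.17%) lower, with a median of 0.10 log2, which became 32 (39.5%) higher and 12 (14.8%) lower with the length trend removed, against 37.2% and 19.9% of all genes with a length. Of 29 genes of P granules and germline determinants 17 (58.6%) were higher and 3 (10.34%) lower, with a median of 0.17 log2. With the length trend removed 8 (27.6%) were higher and 6 (20.7%) lower, against the same 37.2% and 19.9%. The share higher was then below that of all genes. In none of these lists was a gene called, against 0.353% of all genes called higher and 0.193% called lower. The lists were written with earlier results of these data known and got no set test.

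**Figure D4:**
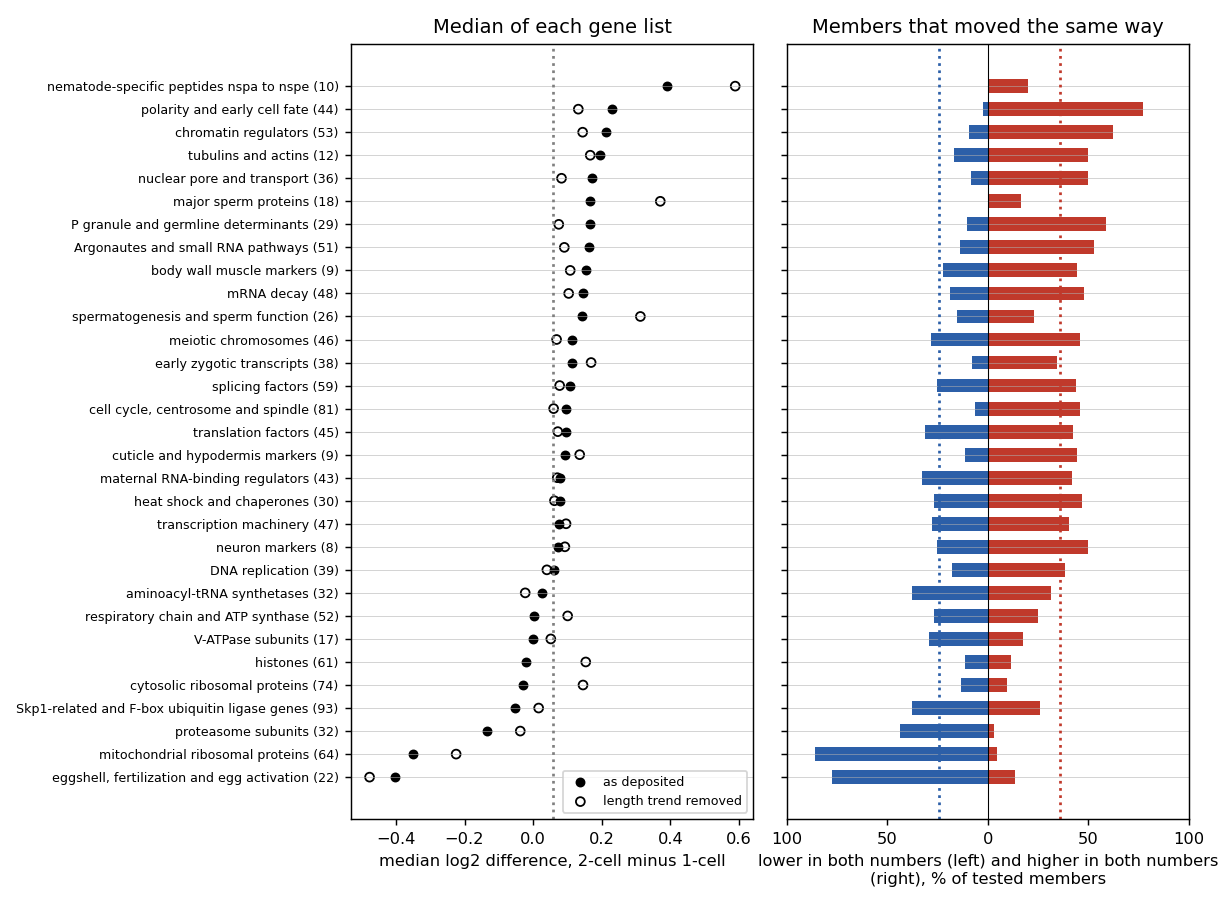
Left, the median difference 2-cell minus 1-cell (log2) of the tested members of gene lists, as deposited (filled) and with the length trend removed (open). Right, the percent of tested members lower (blue) and higher (red) in both numbers. The intestine, somatic gonad and yolk lists, with few or no members tested, are not drawn. Numbers of tested members stand in parentheses, and the dotted lines give the as-deposited values over all genes tested, 0.06 log2, 24% and 36%. With the length trend removed the median over all genes with a length was 0.07 log2. Eggshell and mitochondrial ribosomal genes stand lowest.

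**Figure D5:**
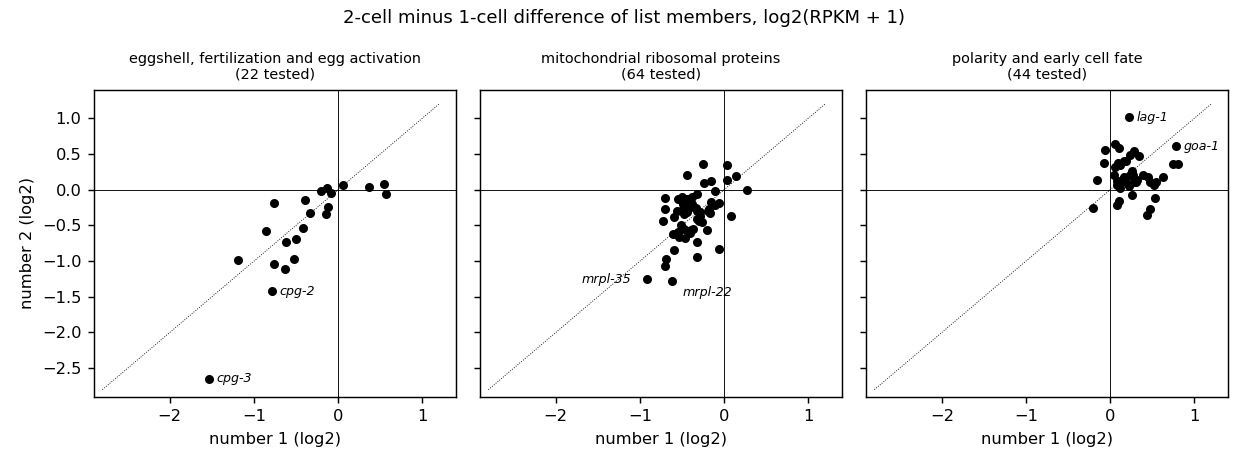
Difference 2-cell minus 1-cell of each tested list member in number 1 (horizontal axis) and number 2 (vertical axis), in log2(RPKM + 1), with a dotted line at equal differences. Eggshell and mitochondrial ribosomal genes lie mostly in the lower left, with 17 of 22 and 55 of 64, and polarity genes in the upper right, with 34 of 44.

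Apart from lin-41, the maternal RNA-binding regulators did not pass the adjusted p. Of the 43 tested 18 (41.9%) were higher and 14 (32.6%) lower in both numbers, against 36% and 24% of all genes, with a median of 0.08 log2. pos-1, a zinc finger regulator of posterior fate, stood at 2566 and 4042 RPKM and then at 3475 and 3770 RPKM (limma adjusted p = 0.645). nos-2, a Nanos protein of the germline precursors, stood at 1143 and 851 RPKM and then at 1107 and 817 RPKM (limma adjusted p = 0.910). oma-1, whose protein carries the GFP in the labelled strain, stood at 200 and 166 RPKM and then at 243 and 210 RPKM (0.31 log2, limma adjusted p = 0.460). The pos-1 stages overlapped, as did those of nos-2, while both 2-cell libraries of oma-1 lay above both 1-cell libraries.

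mex-3, an RNA-binding repressor in the anterior, stood at 142 and 152 RPKM and then at 190 and 224 RPKM (0.49 log2, limma adjusted p = 0.223). mex-1, for a zinc finger protein of the germ lineage, stood at 116.3 and 113 RPKM and then at 135 and 175 RPKM (0.42 log2, limma adjusted p = 0.331). meg-1, for a P granule protein, stood at 95.7 and 165 RPKM and then at 160 and 175 RPKM (0.41 log2, limma adjusted p = 0.376). In mex-3 and mex-1 both 2-cell libraries lay above both 1-cell libraries, and in meg-1 the stages overlapped. None of these differences passed.

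Of the mitotic cyclins, cyb-1 stood at 363 and 494 RPKM in 1-cell and at 428 and 416 RPKM in 2-cell embryos, and cyb-3 stood at 599 and 1585 RPKM and then at 983 and 1652 RPKM. Their limma adjusted p were 0.993 and 0.330. taf-4, a TFIID subunit that the OMA proteins hold in check in the 1-cell embryo, stood at 26.1 and 26.99 RPKM and then at 27.6 and 53.1 RPKM (limma adjusted p = 0.310). The difference of taf-4 stood almost wholly in number 2. eef-1A.1, for a translation elongation factor, stood at 1844 and 1380 RPKM and then at 2503 and 2257 RPKM (0.57 log2, limma adjusted p = 0.0667). Both 2-cell libraries of eef-1A.1 lay above both 1-cell libraries.

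Of the markers of adult tissues, the summed cuticle and muscle markers differed more between the numbers than between the stages. Cuticle and hypodermis markers summed to 237 and 76.8 RPKM in the 1-cell and to 330 and 82.6 RPKM in the 2-cell libraries. Most of this came from lin-26 (114 and 53.7 RPKM, then 135 and 61.5 RPKM) and dpy-17 (52.6 and 7.84 RPKM, then 91.0 and 4.70 RPKM). lin-26 is also on the list of early zygotic transcripts. Body wall muscle markers summed to 100 and 40.8 RPKM and then to 134 and 36.4 RPKM. Neuron markers stood the other way, higher in number 2, with 417 and 644 RPKM and then 542 and 656 RPKM. Most of this came from snb-1 (209 and 424 RPKM, then 322 and 432 RPKM) and unc-119 (184 and 204 RPKM, then 193 and 203 RPKM). The neuron and cuticle sums thus describe a few genes more than a tissue. Yolk protein genes, which the adult intestine makes, summed to no more than 0.436 RPKM in any of the 4 libraries, and 0 of these 6 genes were tested. Of the tested cuticle, muscle, intestine, neuron and somatic gonad markers 0 were called, against 0.353% of all genes called higher and 0.193% lower. The part of these markers in the results above was not tested.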

How the data were processed

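Polyadenylated RNA was sequenced in 8 libraries, and the 4 embryo libraries were compared. The authors deposited RPKM for 21774 genes. BWA is named without a version, per the submitters' processing notes, and the genome build, annotation and counting tool are not given in the sources used here, so no positions are printed. WBcel235 served for names (18746 matched, 3028 not), transcript lengths and gene order. Sequences were not used here.

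The deposited RPKM were not rescaled, and 1 was added as a pseudocount before taking log2. limma 3.58.1 in R 4.3.3 fitted the 8791 genes with the replicate number as a block and a variance trend (1 residual and 13.98 prior degrees of freedom), two-sided, with Benjamini-Hochberg adjustment. The labels do not tie same-numbered libraries together. Their deviations from the stage means correlated at 0.888, with only 2 pairs. Fold changes on this scale understate those of low genes. Stated depths were not used here, so no counting intervals are given.

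The filter lies within a run of genes: 154 had a second-highest value of 1 to 1.1 RPKM and 208 of 0.9 to 1 RPKM. Genes that passed only through the 2-cell libraries numbered 43, and only through the 1-cell libraries 14.

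Gene lists were described by counts and medians. The rule for named genes took, in each direction, the 10 with the largest smaller-of-both difference among called genes averaging at least 10 RPKM in the higher stage, filled up with genes differing by at least 1 log2 in both numbers. It added up to 4 called members of each of 34 lists (else the 2 most abundant) and a panel, in which vet-4 was not tested. Not all are printed, and the other called genes were named after their values were seen. Members and lists were chosen with earlier results of these data known. Alternatives changed the block, pseudocount, filter, scaling, samples, variance prior, length trend and libraries. Each alternative fit estimated the spread anew, so the size of an adjusted p is not comparable between fits.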

Additional observations from a re-analysis of the deposited data

How the results depend on the processing

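Without the pairing, with no replicate block, 0 genes were called higher and 0 lower. Genes called higher and lower, 31 and 17 as reported, numbered 9 and 9 with a pseudocount of 5, 12 and 4 with no filter on low values, and 8 and 0 when all 8 libraries shared the spread. With at least 5 RPKM in 2 libraries 6 were called higher, since 6 of the 31 were left to test. With the length trend removed 10 were called lower. Leaving out single libraries gave 0 to 3 higher and 0 to 1 lower. The counts past 1 log2 in both numbers, 17 higher and 8 lower, became 36 and 15 with a pseudocount of 0.1 and 3 and 3 with one of 5. The higher count became 3 with at least 5 RPKM. One number alone gave 46 to 95 higher and 13 to 56 lower. The median difference became 0.12 with a common RPKM sum and 0.0118 with quantile normalization. Under those scalings cyb-1 turned to 0.0713 and 0.1255 log2 and nos-2 to 0.0254 and 0.0650 log2, and end-3 to -0.0092 log2 under quantile normalization. Leaving out single libraries or a number, which removes the pairing, let 9 named genes change sign: end-1 ran from -0.1862 to 0.3454, end-3 from -0.3019 to 0.4537, egg-1 from -1.8975 to 0.0921, hat-1 from -0.0798 to 1.6509, sip-1 from -2.1071 to 0.5908, pos-1 from -0.1592 to 0.4960, cyb-1 from -0.2472 to 0.2353, cyb-3 from -0.3148 to 1.0873 and nos-2 from -0.2709 to 0.1671 log2. The causes were not tested.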
